A study of Arabidopsis thaliana with 10 samples.

Results

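The 10 genes described here link light and warmth to growth. They are the photoreceptor gene PHYB, the transcription factor genes PIF1, PIF3, PIF4, PIF5 and PIF7, and the output genes YUC8, IAA19, IAA29 and ATHB2. They were found by gene ID in a count table of 33602 genes, and all 10 had enough counts to test, as had 19768 genes in all. The table names PIF7 as BHLH72 and ATHB2 as HAT4. PolyA RNA was taken from true leaf number 5 of Arabidopsis thaliana plants aged 4 weeks, in 5 groups with 2 libraries each. C30 is Col-0 grown at 30 °C (generation 1), and wild type is Col-0 grown at 22 °C. GEN2 is the unstressed progeny of C30 (generation 2), and GEN3 is the unstressed progeny of GEN2 (generation 3). The group sgs3-12 is an unstressed mutant of SGS3, a partner of the RNA polymerase RDR6 in small-RNA production. Seeds of all groups spent 3 days in the cold and dark, seedlings were raised on plates at 22 °C, and after transfer to soil the plants were kept at 22 °C or moved to 30 °C under 16 h of light and 8 h of dark. The labels do not give the background of the sgs3-12 allele. They also leave unsaid whether paired libraries are separate plants, pools or extractions. With all 10 libraries fitted together, a p-value reflects the spread within the pairs of all 5 groups, not only of the 2 compared. That spread may be technical.

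PhyB is a red-light receptor that also loses its active form in the warmth, which makes it a temperature sensor. In its active form it binds PIF proteins, basic helix-loop-helix transcription factors, and leads to their breakdown or inactivation. PIFs that escape bind the G-box (CACGTG) and the PIF-binding E-box (PBE, CACATG) in promoters and drive elongation of hypocotyls and petioles, with PIF4 and PIF7 best known for the response to warmth. Among their targets are YUC8, a flavin monooxygenase that makes auxin, the auxin-response repressors IAA19 and IAA29, and ATHB2, a homeodomain-leucine zipper factor of the shade response.

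The 300 bases before the annotated starts of the 4 output genes are shown because these are the promoters in which PIF proteins could find either motif. They were read on the coding strand from RefSeq's TAIR10.1 assembly, and capitals mark a G-box or a PBE on either strand (CATGTG is the PBE read on the other strand). The windows are chr4:14192269-14192568 for YUC8, chr3:5263701-5264000 for IAA19, chr4:15583032-15583331 for IAA29 and chr4:9448814-9449113 for ATHB2, all on the plus strand and free of other annotated genes.
YUC8: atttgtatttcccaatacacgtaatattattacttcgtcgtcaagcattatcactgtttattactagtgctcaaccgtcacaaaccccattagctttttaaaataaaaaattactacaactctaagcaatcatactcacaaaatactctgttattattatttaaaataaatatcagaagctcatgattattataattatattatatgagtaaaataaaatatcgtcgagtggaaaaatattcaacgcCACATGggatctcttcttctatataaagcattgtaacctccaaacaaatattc
IAA19: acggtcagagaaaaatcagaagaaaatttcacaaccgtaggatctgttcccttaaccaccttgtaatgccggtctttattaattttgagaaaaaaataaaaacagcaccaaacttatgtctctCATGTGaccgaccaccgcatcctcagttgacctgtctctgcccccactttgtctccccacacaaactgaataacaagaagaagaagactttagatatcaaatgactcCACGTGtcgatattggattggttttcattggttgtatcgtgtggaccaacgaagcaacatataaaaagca
IAA29: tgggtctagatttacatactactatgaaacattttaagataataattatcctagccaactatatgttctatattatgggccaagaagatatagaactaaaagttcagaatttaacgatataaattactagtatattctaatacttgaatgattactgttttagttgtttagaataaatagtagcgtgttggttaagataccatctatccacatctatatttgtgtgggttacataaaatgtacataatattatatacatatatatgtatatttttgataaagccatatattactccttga
ATHB2: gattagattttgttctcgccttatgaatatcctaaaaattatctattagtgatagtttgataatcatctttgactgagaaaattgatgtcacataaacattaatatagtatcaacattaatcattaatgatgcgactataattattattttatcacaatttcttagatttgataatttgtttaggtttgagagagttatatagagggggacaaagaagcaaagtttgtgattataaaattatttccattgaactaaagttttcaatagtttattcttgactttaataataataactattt

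The IAA19 window held 1 G-box, 70 bases before the start, and 1 PBE, 177 bases before it. The YUC8 window held 1 PBE, 53 bases before the start. No match was found in the windows of IAA29 and ATHB2. Of the genes upstream in the pathway, PHYB had 2 G-boxes, 146 and 111 bases before its start, and PIF5 had 1, 165 bases before its start, while the windows of PIF1, PIF3, PIF4 and PIF7 had no match to either motif. Among the 27443 windows of all coding genes, 7.09% held a G-box, 13.1% a PBE and 18.9% at least 1 of them, so 4 of 10 genes with a match describe these windows and no more. A match is a string of letters in a window and not a bound site.

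Libraries held 17674090 to 23145159 counts. Levels are given as CPM, the usual counts scaled to a common library size, here with TMM factors, and 2 values for a group are library 1 and then library 2. Across genes, the fitted biological coefficient of variation was 0.472, and the correlation of log2 levels within a pair of libraries ran from 0.788 in GEN2 to 0.969 in C30. GEN2 library 1 and GEN3 library 1 stood apart by gene length. Their log2 levels relative to the 10-library mean had slopes of -2.40 and -1.29 per 10-fold increase in length, against -0.46 to 1.27 in the other 8 libraries. SGS3, the gene mutated in sgs3-12, was at 9.40 and 8.02 CPM in sgs3-12 and at 9.48 and 7.87 CPM in GEN2, against 24.1 and 35.1 CPM in wild type, so its level set the mutant apart from wild type but not from GEN2. Leaf mesophyll markers summed to 40921 to 41452 CPM in C30, 45769 to 88704 CPM in GEN2, 56432 to 80422 CPM in GEN3 and 35312 to 42626 CPM in sgs3-12, against 52824 to 66080 CPM in wild type. Root markers summed to at most 0.265 CPM, with RHD6, EXPA7 and PLT1 at 0, and meristem markers to at most 0.2001 CPM, with STM, WUS and CLV3 at 0. Flower markers reached 6.17 CPM. Epidermis markers summed to 45.0 to 45.1 CPM in C30, 47.8 to 61.8 CPM in GEN2, 55.0 to 70.4 CPM in GEN3 and 61.1 to 83.9 CPM in sgs3-12, against 73.9 to 85.5 CPM in wild type. Guard cell markers summed to 41.3 to 62.7 CPM in C30, 48.8 to 56.2 CPM in GEN2, 49.7 to 70.1 CPM in GEN3 and 88.3 to 114 CPM in sgs3-12, against 79.0 to 79.8 CPM in wild type. Vascular markers summed to 129 to 215 CPM in C30, 98.9 to 255 CPM in GEN2, 179 to 227 CPM in GEN3 and 216 to 235 CPM in sgs3-12, against 242 to 323 CPM in wild type. Guard cell and epidermis sums were thus below wild type in C30, GEN2 and GEN3. Mesophyll sums were below it in C30 and sgs3-12, and vascular sums in C30, GEN3 and sgs3-12. Guard cell sums were above it in sgs3-12. Single markers did not all follow their sum. Of the 4 mesophyll markers in sgs3-12, RCA was above both wild-type libraries, LHCB1.3 was below both and the others overlapped. Of the 2 vascular markers there, ATHB8 was above both and SUC2 below both. Only 1 of the 3 guard cell markers was above both there. The part of these differences in the results was not tested. In bulk leaf RNA, fewer cells of a type and less RNA per cell cannot be told apart.

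By level per length in wild type (CPM per kilobase of gene length), PIF4 was the most abundant of the 10 genes at 144 ± 6.04, followed by PIF5 at 64.5 ± 17.5, PIF7 at 24.7 ± 15.2, ATHB2 at 19.8 ± 3.90, IAA29 at 19.7 ± 6.19, PHYB at 14.6 ± 1.78, PIF1 at 12.7 ± 0.92, IAA19 at 8.36 ± 0.68, PIF3 at 6.22 ± 1.26 and YUC8 at 0.93 ± 0.57 (SD, n = 2). In sgs3-12 the order at the top differed, with PIF5 at 67.0 ± 6.88 above PIF4 at 47.5 ± 10.6 CPM per kilobase (SD, n = 2). When the 5 group means of each gene were put in order, 33 of the 40 neighbouring pairs of groups overlapped in their libraries and 7 did not. The same count was not made over all genes, so 7 of 40 describes these genes and no more. Of those 7, 4 parted wild type from its neighbour in the order: PHYB was higher in sgs3-12 and lower in C30 than in wild type, ATHB2 was lower in sgs3-12 and PIF4 lower in GEN2. The other 3 were PIF4 lower in sgs3-12 than in C30, PIF5 lower in sgs3-12 than in GEN3, and PIF7 higher in GEN3 than in C30.

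**Figure D1:**
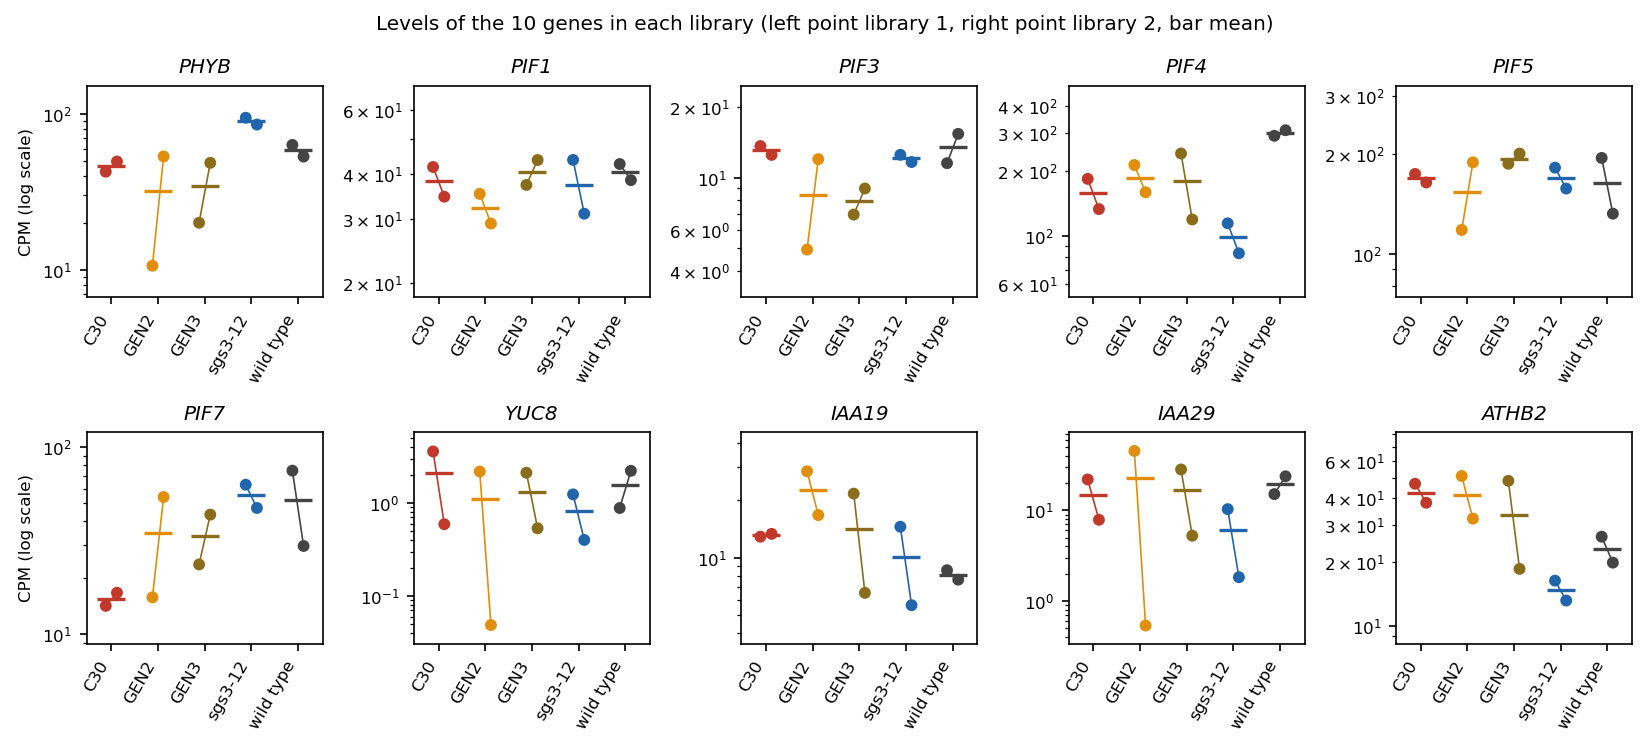
CPM of the 10 genes in each of the 10 libraries, on log axes that differ between panels; points joined by a line are the 2 libraries of a group and the horizontal bar is their mean. PIF4 in wild type, at 290.2 and 308 CPM, lies above all 8 other libraries, and IAA29 in GEN2 spans 0.535 to 45.3 CPM.

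With edgeR's quasi-likelihood test and Benjamini-Hochberg adjustment over 19768 genes, none of the 10 genes passed an adjusted p of 0.05 in any comparison, and neither did any other gene (0% called in each of the 4 comparisons with wild type, where 7.91% of genes in C30, 11.6% in GEN2, 8.58% in GEN3 and 9.91% in sgs3-12 had an unadjusted p under 0.05). Among the 10 genes, an unadjusted p under 0.05 was seen for PIF7 in C30, IAA19 in GEN2 and PIF4 in sgs3-12, and for no gene in GEN3. DESeq2 called 1.13%, 2.55%, 0.75% and 2.33% of 24527 genes in the same 4 comparisons. Of the 10 genes it called 1, PIF4 in sgs3-12, where it called 1.24% of genes as lower. All 4 comparisons use the same 2 wild-type libraries, so values side by side are not independent. Differences below are therefore given as levels and estimates with their errors.

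PIF4 (AT2G43010; TAIR10 chromosome 2, 17886427 to 17889050, plus strand), the factor most closely tied to growth in the warmth, showed the clearest separation from wild type. It was at 184 and 133 CPM in C30, 213 and 159 CPM in GEN2, 241 and 119 CPM in GEN3 and 114 and 83.2 CPM in sgs3-12, against 290.2 and 308 CPM in wild type. Every library of the other 4 groups was thus below both wild-type libraries, and the 2 sgs3-12 libraries were the lowest of all 10. Of all genes tested, 25.2% were below both in C30, 17.2% in GEN2, 22.2% in GEN3 and 24.6% in sgs3-12. The share below in all 4 groups at once was not counted, so this place describes PIF4 and no more. The same holds for genes named further on as above or below wild type in all 4 groups. In sgs3-12, PIF4 averaged 98.9 ± 22.1 CPM against 299 ± 12.6 CPM in wild type (SD, n = 2 each), a log2 fold change of -1.60 ± 0.44 (SE). The adjusted p was 0.35 with edgeR's quasi-likelihood test and 0.020 with DESeq2, and it ran from 0.020 to 1 over the alternatives. Without library 1 of GEN2 and GEN3 together, edgeR called it (adjusted p = 0.043) in a fit that called 1.88% of genes as lower in sgs3-12. The estimate was -1.64 without wild-type library 1 and -1.58 without wild-type library 2. The log2 fold change was -0.92 ± 0.43 in C30, -0.69 ± 0.43 in GEN2 and -0.73 ± 0.43 in GEN3, with edgeR adjusted p of 0.66, 0.55 and 0.64. GEN3 depended on the library: the estimate was -1.33 without its library 1 and -0.32 without its library 2.

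PIF5 (AT3G59060; chromosome 3, 21827978 to 21830507, minus strand), the closest relative of PIF4, did not separate from wild type in any group. It was at 175 and 165 CPM in C30, 118 and 189 CPM in GEN2, 187 and 201 CPM in GEN3 and 182 and 158 CPM in sgs3-12, against 195 and 132 CPM in wild type. All 4 groups overlapped with wild type, and the log2 fold changes lay between -0.09 ± 0.37 in GEN2 and 0.25 ± 0.37 in GEN3. Within a library, the ratio of PIF4 counts to PIF5 counts does not depend on scaling. It was 1.05 and 0.809 in C30, 1.80 and 0.841 in GEN2, 1.28 and 0.593 in GEN3 and 0.627 and 0.528 in sgs3-12, against 1.49 and 2.33 in wild type. PIF4 outnumbered PIF5 in both wild-type libraries and in neither sgs3-12 library, and GEN2 overlapped with wild type. The ratio shows that the 2 transcripts differed unequally between libraries, not which of them did.

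**Figure D2:**
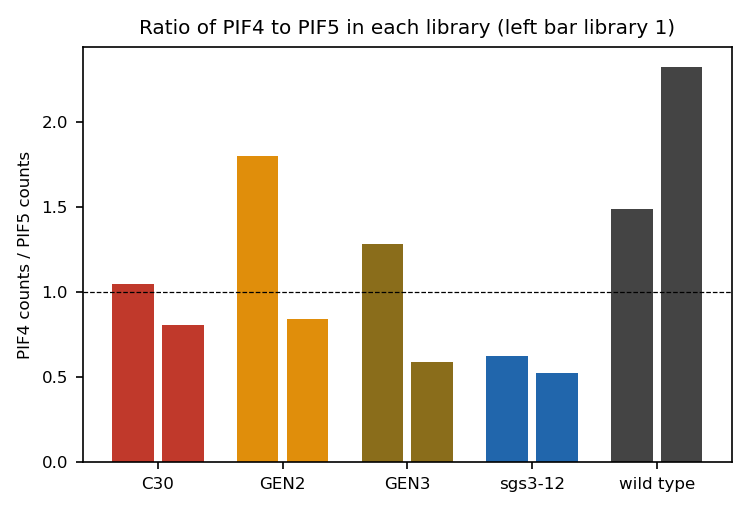
Ratio of PIF4 counts to PIF5 counts in each library, with 2 bars per group (library 1 left, library 2 right) and a dashed line at equal counts. Both sgs3-12 bars, 0.627 and 0.528, are under the line and both wild-type bars, 1.49 and 2.33, are above it.

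PIF7 (AT5G61270; chromosome 5, 24638773 to 24640600, minus strand), which acts with PIF4 in shade and warmth, was lowest in C30. It was at 14.1 and 16.6 CPM in C30, 15.7 and 54.0 CPM in GEN2, 23.5 and 43.5 CPM in GEN3 and 62.9 and 47.3 CPM in sgs3-12, against 74.8 and 29.6 CPM in wild type. The C30 libraries were below both wild-type libraries, while the other 3 groups overlapped with them. The log2 fold change in C30 was -1.76 ± 0.67 (edgeR adjusted p = 0.58, DESeq2 adjusted p = 0.27). The 2 wild-type libraries differed 2.53-fold, and the estimate was -0.94 without wild-type library 1 and -2.29 without library 2. PIF7 overlaps the gene AT5G61260 on the other strand, and how the counting treated strand is unstated, so its counts are uncertain; AT5G61260 had 2 to 37 counts per library and PIF7 280 to 1693.

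PIF1 (AT2G20180; chromosome 2, 8704024 to 8706900, minus strand), a factor known for keeping seeds dormant and seedlings from greening in the dark, was the steadiest of the 10 genes. Its 10 libraries lay between 29.2 and 43.7 CPM, and the within-group SD of 0.21 on the log2 scale was larger than that of 10.8% of the genes tested. It averaged 32.2 ± 4.28 CPM in GEN2, where both libraries (35.2 and 29.2 CPM) were below both in wild type (42.6 and 38.4 CPM), a log2 fold change of -0.33 ± 0.33 with an edgeR adjusted p of 0.69. In a fit corrected for gene length, that estimate turned to 0.56. PIF1 overlaps AT2G20170, which had 0 counts in every library, and with strand unstated its counts carry the same uncertainty in principle.

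PIF3 (AT1G09530; chromosome 1, 3076582 to 3079539, plus strand), known from greening and hypocotyl growth, was at 13.7 and 12.5 CPM in C30, 4.93 and 12.0 CPM in GEN2, 6.96 and 8.996 CPM in GEN3 and 12.5 and 11.7 CPM in sgs3-12, against 11.5 and 15.4 CPM in wild type. Only GEN3 was below both libraries of wild type, at a log2 fold change of -0.75 ± 0.45 and an edgeR adjusted p of 0.64. In GEN2 the log2 fold change was -0.67 ± 0.45, and with library 1 as its only library it was -1.60 with an edgeR adjusted p of 0.046, in a fit that called 7.84% of all genes as lower in GEN2. That library is the one with the steepest dependence on gene length, and without it the estimate was -0.17.

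PHYB (AT2G18790; chromosome 2, 8139881 to 8144430, plus strand) was highest in sgs3-12. It was at 42.7 and 49.6 CPM in C30, 10.6 and 53.5 CPM in GEN2, 20.0 and 48.6 CPM in GEN3 and 94.8 and 85.7 CPM in sgs3-12, against 63.4 and 53.4 CPM in wild type. Both sgs3-12 libraries were above every other library, and C30 and GEN3 were below both wild-type libraries. The log2 fold change was 0.63 ± 0.69 in sgs3-12, -0.34 ± 0.69 in C30 and -0.76 ± 0.69 in GEN3, with edgeR adjusted p of 0.85, 0.94 and 0.73. The GEN3 estimate was -0.26 without its library 1 and -1.55 without its library 2. In GEN2 it was -0.87 ± 0.69, and it ran from -2.62 without library 2 (edgeR adjusted p = 0.039, in the fit that called 7.84% of genes as lower) to -0.13 without library 1. PHYB is the longest of the 10 genes, at 3996 bases, and its low values fall in the 2 libraries that are low in long genes. In GEN2 library 1 its deviation from the 10-library mean was -2.21 on the log2 scale, where the 500 genes nearest in length had a median of -1.50, and in GEN3 library 1 it was -1.20 against -0.66. The part of gene length in these values was not tested further than by the length-corrected fit. In that fit the estimate was -0.33 in GEN2 and, with its sign turned, 0.048 in C30.

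Of the output genes, ATHB2 (AT4G16780; chromosome 4, 9449114 to 9450743, plus strand) stood highest in C30 and lowest in sgs3-12. It was at 46.8 and 38.1 CPM in C30, 50.9 and 32.1 CPM in GEN2, 48.3 and 18.6 CPM in GEN3 and 16.4 and 13.2 CPM in sgs3-12, against 26.4 and 19.9 CPM in wild type. The C30 and GEN2 means were close, at 42.4 and 41.5 CPM. Both libraries of C30 and of GEN2 were above both of wild type, GEN3 overlapped, and both sgs3-12 libraries were below. The log2 fold changes were 0.87 ± 0.49 in C30, 0.84 ± 0.49 in GEN2, 0.53 ± 0.48 in GEN3 and -0.64 ± 0.48 in sgs3-12, with edgeR adjusted p of 0.72, 0.52, 0.74 and 0.74. Without its library 1, the GEN3 estimate was -0.31.

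IAA19 (AT3G15540; chromosome 3, 5264024 to 5265678, plus strand), an auxin-inducible repressor of auxin signalling known from hypocotyl bending, was lowest on average in wild type. It was at 12.9 and 13.3 CPM in C30, 28.4 and 16.7 CPM in GEN2, 21.7 and 6.52 CPM in GEN3 and 14.5 and 5.61 CPM in sgs3-12, against 8.58 and 7.65 CPM in wild type. Both libraries of C30 and of GEN2 were above both of wild type, and GEN3 and sgs3-12 each had 1 library above and 1 below. The log2 fold change in GEN2 was 1.48 ± 0.64 (edgeR adjusted p = 0.43, DESeq2 adjusted p = 0.26) and it was 1.04 without library 1 and 1.16 in the length-corrected fit. In C30 it was 0.69 ± 0.63 with an edgeR adjusted p of 0.86.

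IAA29 (AT4G32280; chromosome 4, 15583387 to 15584769, plus strand), another Aux/IAA repressor and a relative of IAA19, varied more within groups than between them. It was at 22.0 and 7.86 CPM in C30, 45.3 and 0.535 CPM in GEN2, 28.3 and 5.25 CPM in GEN3 and 10.3 and 1.83 CPM in sgs3-12, against 15.1 and 23.8 CPM in wild type. The GEN2 libraries held 808 and 11 counts and enclose all 8 other libraries. Only sgs3-12 was below both libraries of wild type, at a log2 fold change of -1.68 ± 1.56 and an edgeR adjusted p of 0.81; this was -3.40 without sgs3-12 library 1 and -0.93 without its library 2. The GEN2 estimate of 0.24 ± 1.52 was -5.17 without library 1 and 1.07 without library 2.

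YUC8 (AT4G28720; chromosome 4, 14192583 to 14194256, plus strand), the auxin-making enzyme of the set, had the fewest counts of the 10 genes in every library. It was at 3.596 and 0.592 CPM in C30, 2.19 and 0.0486 CPM in GEN2, 2.12 and 0.535 CPM in GEN3 and 1.24 and 0.401 CPM in sgs3-12, against 0.884 and 2.22 CPM in wild type. These levels rest on 1 to 74 counts per library, and every group overlapped with wild type. Log2 fold changes lay between -0.91 ± 1.41 in sgs3-12 and 0.42 ± 1.38 in C30, and each was smaller than its standard error. The sgs3-12 estimate was -1.93 without library 1 and -0.13 without wild-type library 2.

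**Figure D3:**
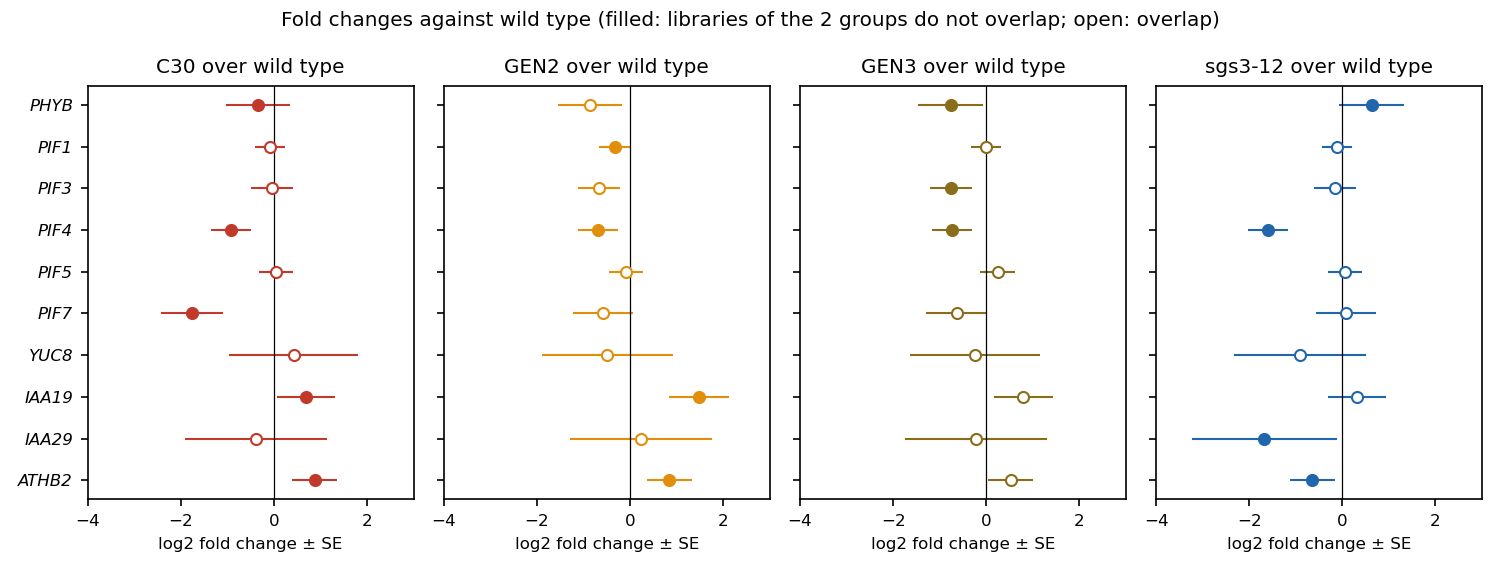
Log2 fold change of each gene over wild type with its standard error from edgeR, in 4 panels for C30, GEN2, GEN3 and sgs3-12; filled points mark genes whose 2 libraries are both above or both below the 2 wild-type libraries. PIF4 is filled and left of 0 in all 4 panels, from -0.69 in GEN2 to -1.60 in sgs3-12.

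Counted over the 10 genes, 2 were above and 3 below both wild-type libraries in C30, where 26.3% of all genes tested were above and 25.2% below. In GEN2 the counts were 2 above and 2 below (16.8% and 17.2% of all genes), in GEN3 they were 0 above and 3 below (21.1% and 22.2%), and in sgs3-12 they were 1 above and 3 below (27% and 24.6%). The median log2 fold change of the 10 genes was -0.06 in C30, -0.41 in GEN2, -0.23 in GEN3 and -0.14 in sgs3-12, beside -0.02, 0.11, 0.04 and 0.01 over all genes.

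Between generations, the values of the 10 genes differed by less than their standard errors in most cases. In GEN2 over C30, 16.7% of all genes tested were above both libraries and 18.7% below, and IAA19 was the 1 gene of the 10 above both, with a log2 fold change of 0.78 ± 0.63, and PIF3 the 1 below both, with -0.63 ± 0.45. In GEN3 over C30, PIF7 (1.13 ± 0.66) and PIF5 (0.20 ± 0.37) were above both libraries and PIF3 (-0.71 ± 0.45) below both, where 22.5% of all genes were above and 23.5% below. PIF7 was thus at 23.5 and 43.5 CPM in GEN3, against 14.1 and 16.6 CPM in C30. Between GEN3 and GEN2, PIF1 alone did not overlap, with a log2 fold change of 0.33 ± 0.33, where 5.78% of all genes were above and 6.27% below. PIF7 had the largest estimate of the 3 comparisons in GEN2 over C30, at 1.18 ± 0.66, but its libraries overlapped (15.7 and 54.0 CPM in GEN2, against 14.1 and 16.6 CPM in C30). The edgeR adjusted p of the 10 genes ran from 0.61 to 1 over these comparisons, and edgeR called 0% of genes in each of the 3 comparisons.

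Of the 10 genes, IAA29 differed most between the libraries of a group. Its within-group SD was 1.88 on the log2 scale, larger than that of 99.6% of the genes tested, whose median was 0.423. The SD was 0.84 for YUC8, 0.81 for PHYB, 0.75 for PIF7 and 0.68 for IAA19, and 0.40 for PIF4. In all 5 groups, the library with more IAA29 also had more YUC8 and more PIF4, and this held for ATHB2 in 4 of 5 groups. It held in 3 of 5 for IAA19, PIF1 and PIF3, in 2 of 5 for PIF5 and in 1 of 5 for PHYB and PIF7. In GEN2, library 1 had 4.92 more IAA29 than library 2 on the log2(CPM + 1) scale, a gap larger than that of 99.5% of genes tested. Auxin-response and growth genes ran the same way: 19 of 27 were higher in GEN2 library 1, with a median log2 ratio of 1.29, where 50.1% of all genes were higher and the median was 0.00. In sgs3-12, 24 of 27 were higher in library 1 with a median of 0.34, where 51% of all genes were, and in wild type 11 of 27 were, where 46.6% of all genes were. The counts were 18 of 27 in C30 and 17 of 27 in GEN3, where 49.8% and 50.2% of all genes were higher in library 1. These shares over all genes were not matched for gene length, by which library 1 of GEN2 and of GEN3 stood apart. All of these counts describe pairs of libraries with no replicate and carry no test.

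Gene length was set beside these gaps, since IAA19 (970 bases), IAA29 (989 bases) and ATHB2 (1171 bases) are the shortest of the 10 genes. In GEN2 library 1, IAA29 deviated from its 10-library mean by 2.12 on the log2 scale, where the 500 genes nearest in length had a median of 0.41. In GEN2 library 2 it deviated by -3.84, where genes of like length had a median of -0.10. IAA19 deviated by 1.09 in library 1 and 0.55 in library 2, beside medians of 0.44 and -0.10, so it was high in both. ATHB2 deviated by 0.71 and 0.27, beside 0.37 and -0.10. For PIF4, with a length of 2082 bases, the deviations were 0.18 and -0.02, beside -0.41 and 0.10.

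**Figure D4:**
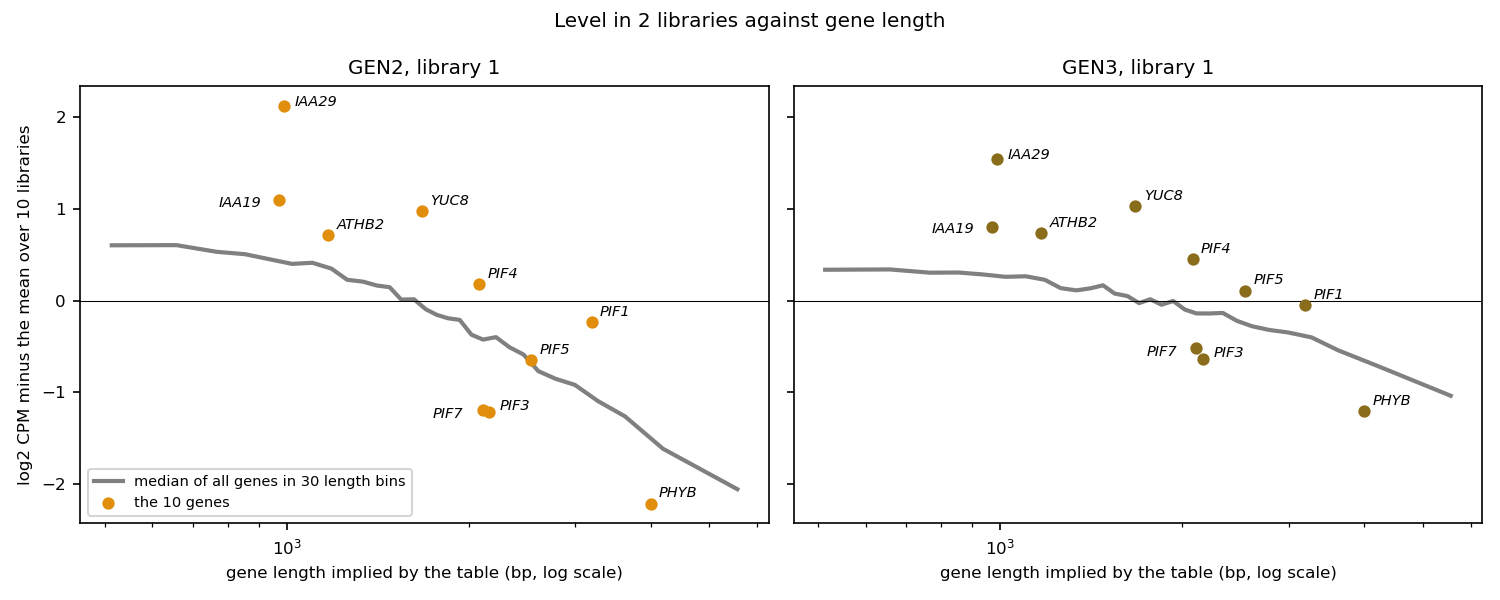
Log2 CPM minus the 10-library mean against gene length in base pairs (log axis), for GEN2 library 1 (left) and GEN3 library 1 (right); the grey line joins the medians of all genes in 30 bins of length and the points are the 10 genes. In GEN2 library 1 the line falls with length, IAA29 lies above it at 2.12 and PHYB below it at -2.21.

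Clock genes differed strongly between libraries, and PIF4 and its relatives are under clock control, so their values are given beside the results above. No harvest time is stated in the labels. In wild type library 2, the evening genes FKF1 (61.3 CPM), PRR5 (127 CPM), TOC1 (163 CPM), LUX (73.8 CPM) and ELF4 (39.1 CPM) were each above every other library, where FKF1 reached at most 0.826 CPM. The morning gene LHY was at 40.6 and 37.5 CPM in C30, 20.8 and 292 CPM in GEN2, 31.4 and 304 CPM in GEN3 and 489 and 407 CPM in sgs3-12, against 21.6 and 4.08 CPM in wild type. LHY thus split GEN2 and GEN3 between their libraries, and in both generations the library with less LHY was the one with more PIF4, YUC8, IAA19, IAA29 and ATHB2. That library is also the one that stood apart by gene length. In C30 and sgs3-12 the library with more LHY had more PIF4, YUC8, IAA29 and ATHB2, and in wild type the library with less LHY had more PIF4, YUC8 and IAA29. PRR7 was at 34.9 to 96.3 CPM outside wild type, against 299.9 and 361 CPM in wild type, and DESeq2 called it in all 4 comparisons. GI, which acts in the evening, was at 3.64 to 19.96 CPM outside wild type, against 42.9 and 146 CPM in wild type, and DESeq2 called it in GEN2, GEN3 and sgs3-12. Of 13 clock genes DESeq2 called 2 in C30, 6 in GEN2, 4 in GEN3 and 8 in sgs3-12. Of all genes it called 1.13%, 2.55%, 0.75% and 2.33% in the same order. LHY and RVE8 were called as higher in sgs3-12 and the other 6 there as lower. All calls in C30, GEN2 and GEN3 were lower. ELF3, a part of the evening complex that represses PIF4, was at 5.20 and 3.16 CPM in sgs3-12, against 18.3 and 79.1 CPM in wild type. PIF4 was at 290.2 and 308 CPM in the 2 wild-type libraries. The part of the clock genes in the PIF4 result was not tested.

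**Figure D5:**
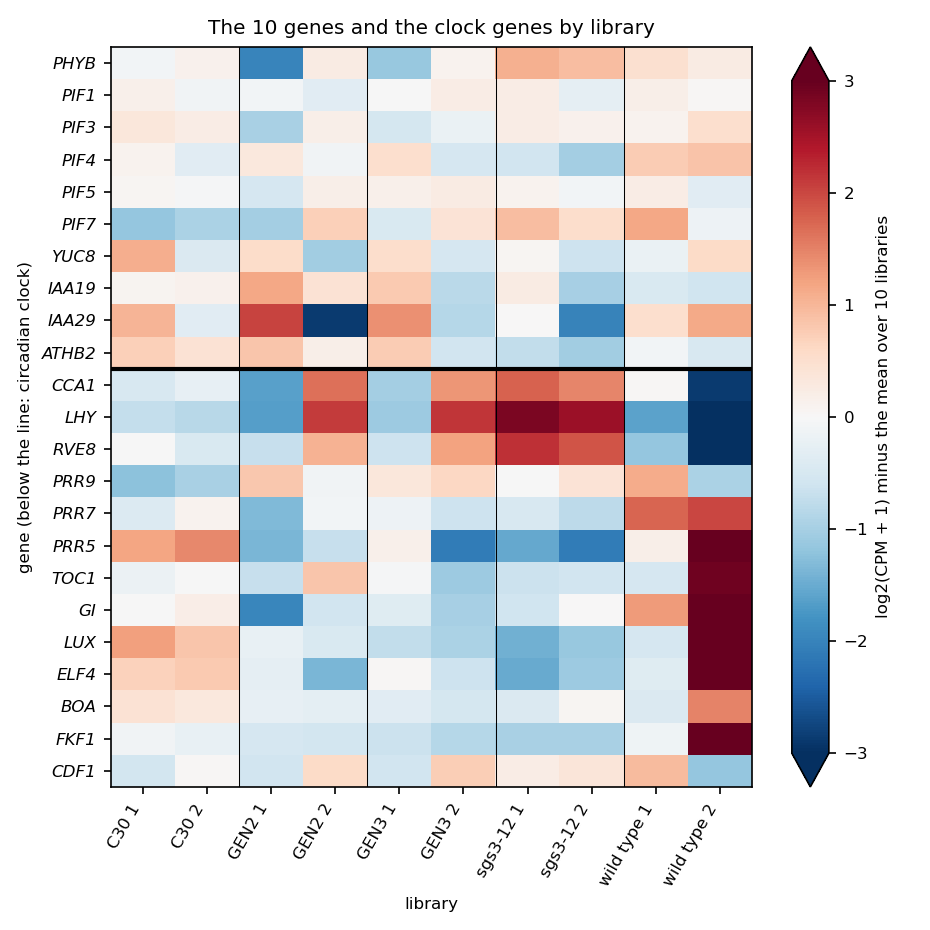
Log2(CPM + 1) minus its mean over the 10 libraries for the 10 genes (above the line) and 13 circadian clock genes (below), 1 column per library; red is high, blue is low, and colours end at 3 log2 units either way. Wild type library 2 stands out in the evening clock genes, with FKF1 at 61.3 CPM, and IAA29 is dark blue in GEN2 library 2 at 0.535 CPM.

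The other photoreceptor genes lay below wild type outside sgs3-12. All 6 (PHYA, PHYC, PHYD, PHYE, CRY1 and CRY2) had negative log2 fold changes in C30, GEN2 and GEN3, with medians of -0.69, -0.91 and -0.83. In sgs3-12 4 of 6 were negative with a median of -0.43. Within GEN2, 1 of 6 was higher in library 1, which was low in long genes, with a median log2 ratio to library 2 of -1.13. Within GEN3, 3 of 6 were higher in library 1, with a median of -0.09. The C30 libraries also differed from wild type in their slopes of log2 level per 10-fold increase in length. These slopes were -0.464 and 0.066 in C30, against 0.904 and 0.696 in wild type and 1.272 and 0.812 in sgs3-12. The part of single libraries and of gene length in the medians of the 4 groups was not tested. PHYA, the far-red receptor, was at 50.9 and 51.7 CPM in C30, 13.0 and 40.2 CPM in GEN2, 32.3 and 27.9 CPM in GEN3 and 42.7 and 25.8 CPM in sgs3-12, against 94.6 and 95.1 CPM in wild type. PHYE was below both wild-type libraries in C30, GEN2 and GEN3 and above both in sgs3-12, with log2 fold changes of -1.03 ± 0.73, -1.01 ± 0.73, -1.20 ± 0.74 and 0.41 ± 0.73. CRY2, a blue-light receptor, was below both libraries of wild type in all 4 groups, at a log2 fold change of -1.20 ± 0.34 in GEN2, where DESeq2 called it (adjusted p = 0.016) and edgeR did not (adjusted p = 0.36).

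Among 10 PIF relatives and cofactors, PIF8 stood apart. It was at 43.7 and 39.6 CPM in C30, 34.9 and 56.8 CPM in GEN2, 21.5 and 100.2 CPM in GEN3 and 128 and 121 CPM in sgs3-12, against 18.6 and 9.13 CPM in wild type. All 8 libraries were above both of wild type, and in sgs3-12 the log2 fold change was 3.166 ± 0.720 (edgeR adjusted p = 0.34, DESeq2 adjusted p = 0.0014). PIF6 and SPT were the other 2 named by rank in the list, and both were below both wild-type libraries in sgs3-12, with -1.52 ± 0.71 and -1.71 ± 0.86. In sgs3-12, 5 of the 10 were below both wild-type libraries and 2 above, beside 24.6% and 27% of all genes.

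Of 17 regulators that act on PIFs, HY5 and HYH, bZIP factors that oppose PIFs at shared promoters, were above both wild-type libraries in all 4 groups. HY5 was at 11.4 and 9.47 CPM in C30, 8.19 and 6.51 CPM in GEN2, 7.03 and 13.2 CPM in GEN3 and 19.8 and 20.8 CPM in sgs3-12, against 4.38 and 4.26 CPM in wild type. In sgs3-12 its log2 fold change was 2.23 ± 0.40 (edgeR adjusted p = 0.27, DESeq2 adjusted p = 0.00011) and that of HYH was 3.67 ± 0.83 (edgeR adjusted p = 0.34, DESeq2 adjusted p = 0.00088). ELF3 was below both wild-type libraries in all 4 groups, and DESeq2 called it in GEN2, GEN3 and sgs3-12. The median of the list was 0.01 in C30, -0.03 in GEN2, 0.15 in GEN3 and 0.23 in sgs3-12.

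Aux/IAA and auxin synthesis genes other than the 10 had mostly positive log2 fold changes in C30, GEN2 and GEN3. In GEN2 all 14 Aux/IAA repressor genes were positive with a median of 0.68, beside 0.11 over all genes. There 5 of 14 were above both wild-type libraries, beside 16.8% of all genes. Within GEN2, 12 of 14 were higher in library 1, which stood apart by gene length, with a median log2 ratio to library 2 of 1.05, and the part of that library in the list's median was not tested. The medians were 0.36 in C30, 0.24 in GEN3 and -0.14 in sgs3-12. In GEN3 13 of 14 were positive and 5 were above both wild-type libraries, beside 21.1% of all genes. In C30 9 were positive, with 7 above both and 3 below both, beside 26.3% and 25.2% of all genes. In sgs3-12 6 were positive. IAA17 was at 103 and 54.8 CPM in GEN2, against 39.5 and 17.8 CPM in wild type, a log2 fold change of 1.46 ± 0.58 with an edgeR adjusted p of 0.39. IAA6 was at 9.76 and 6.998 CPM in GEN2, against 4.02 and 1.21 CPM in wild type, and IAA3 at 155 and 49.7 CPM in GEN2, against 48.5 and 61.1 CPM in wild type, so that IAA3 overlapped. Of 12 auxin synthesis genes 7 had enough counts to test, and their median was 0.67 in C30, 0.41 in GEN2, 0.72 in GEN3 and -0.06 in sgs3-12. CYP79B3, TAR2 and YUC2 were each above both wild-type libraries in C30, with log2 fold changes of 1.40 ± 0.73, 0.59 ± 0.49 and 1.33 ± 0.63. Neither edgeR nor DESeq2 called any gene of these 2 lists against wild type.

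Growth outputs lay mostly below wild type in sgs3-12. Of 27 auxin-response and growth genes tested, 19 had negative log2 fold changes in sgs3-12 and 14 were below both wild-type libraries, with a median of -0.59, beside 24.6% of all genes below and a median of 0.01. The medians were 0.09 in C30, 0.49 in GEN2 and -0.05 in GEN3. The SAUR19 to SAUR24 genes in this list are near-identical copies whose reads the counting could split, so their values are uncertain. The counts above take each copy as a separate gene. Of the 27, 8 were positive in sgs3-12 and 3 were above both wild-type libraries. PKS4, a phytochrome substrate in phototropism, was above both wild-type libraries in C30 at 30.2 and 23.7 CPM, against 8.66 and 10.3 CPM in wild type, with a log2 fold change of 1.502 ± 0.441 and an edgeR adjusted p of 0.49. SAUR9 was at 3.31 and 6.56 CPM in GEN2, against 0.973 and 1.81 CPM in wild type, a log2 fold change of 1.83 ± 0.54. PKS4 and SAUR9 were positive in sgs3-12 too, at 0.59 ± 0.43 and 0.56 ± 0.54, but overlapped with wild type there. CKX5, a cytokinin oxidase, was above both wild-type libraries in all 4 groups, at 1.15 ± 0.54 in C30, 1.83 ± 0.54 in GEN2, 0.86 ± 0.54 in GEN3 and 0.87 ± 0.53 in sgs3-12. Neither tool called any of the 27 genes against wild type.

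The 5 HD-Zip II relatives of ATHB2 (HAT1, HAT2, HAT3, ATHB4 and HAT22) were, like ATHB2, above both wild-type libraries in C30. Of all genes, 26.3% were above both there. The median log2 fold change of the 5 in C30 was 0.68. Not all had their largest estimate in C30. ATHB4 was at 0.57 ± 0.80 there and at 1.46 ± 0.80 in GEN3, where it overlapped with wild type. HAT22 was at 71.9 and 57.9 CPM in C30, 61.0 and 164 CPM in GEN2, 62.6 and 75.6 CPM in GEN3 and 55.4 and 60.4 CPM in sgs3-12, against 32.8 and 33.8 CPM in wild type. DESeq2 called it in GEN2 (log2 fold change of 1.76 ± 0.47 from edgeR, DESeq2 adjusted p = 0.031). HAT3 was below both wild-type libraries in sgs3-12, as was ATHB2, with a log2 fold change of -0.85 ± 0.42 and an edgeR adjusted p of 0.56. ATHB4 was above both there, at 0.960 and 0.980 CPM against 0.265 and 0.464 CPM in wild type.

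For each of the 10 genes, the 2 genes nearest in pattern were found among 14056 genes with a mean of 5 CPM or more, as the smallest root mean square difference of log2(CPM + 1), centred on each gene's mean, over the 10 libraries. Nearest to PIF4 were AT5G49640 (0.23 log2 units) and AT2G37585 (0.25). Nearest to PHYB were NUP1 (0.09) and CPL2 (0.10), and nearest to PIF3 were NAC014 (0.08) and WIT1 (0.12). For PIF1 they were ACS12 (0.11) and AT1G34020 (0.11), for PIF5 AT4G14930 (0.13) and KOR (0.13), and for PIF7 MAP65-6 (0.26) and AT5G63700 (0.28). For YUC8 they were BCDH BETA1 (0.27) and AT3G27906 (0.32), for IAA19 BZIP63 (0.31) and ATARLB1 (0.33), and for ATHB2 AT5G16480 (0.17) and AT3G54880 (0.19). IAA29 had the most distant neighbours, AT3G19850 (0.47) and the expansin gene EXPA8 (0.50). EXPA8 ranged from 11.4 to 768 CPM, and in GEN2 its deviation from the 10-library mean was 1.97 in library 1 and -3.87 in library 2, beside 2.12 and -3.84 for IAA29. Likeness over 10 libraries that share their length and clock differences is a description.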

How the data were processed

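The 10 libraries were sequenced from polyA RNA and processed with HISAT2 2.0.4 and StringTie 1.3.0 on TAIR10, per the submitters' processing notes. How reads were counted, and whether by strand, is not stated in these notes. Read counts per gene, named so per the file headers, stand in the deposited table beside FPKM columns that the authors made before deposit. Of the FPKM columns, 2 share a header and were not used; 8 served only to derive each gene's length from counts and FPKM. RefSeq gene starts come from TAIR10.1, whose coordinates overlapped those of the deposited loci for all 27998 matched nuclear genes.

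Counts were tested with edgeR 4.0.16 (quasi-likelihood F-test, TMM scaling, filterByExpr, group as the only factor, all 10 libraries, R 4.3.3), with p-values adjusted over 19768 genes. Alternatives were DESeq2 1.42.0, limma 3.58.1 on log2(FPKM + 1) for a mean FPKM of 1 or more, other scaling, no filter, the 2 compared groups only, a replicate block, a length offset, and libraries left out. The 10 genes and all lists were chosen with earlier results of these data known. Named from each list were the 3 genes with the smallest p in the test of all 5 groups, and further clock and marker genes where their values stand beside a result; EXPA8 entered by its nearness to IAA29. The replicate numbers do not pair the libraries by the labels.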

Additional observations from a re-analysis of the deposited data

How the results depend on the processing

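The 40 estimates (10 genes in 4 comparisons with wild type) gave 716 values under the alternatives, of which 53 had the other sign and 4 passed the threshold: PIF4 in sgs3-12 with DESeq2 and without library 1 of GEN2 and GEN3 together (edgeR adjusted p = 0.043), and PHYB and PIF3 in GEN2 without library 2, where 1586 of 20221 genes were called as lower. PIF4 kept its sign in all 4 groups under every alternative run. The sign of 23 estimates turned at least once. With the length offset, it turned to 0.048 for PHYB, 0.20 for PIF1 and 0.025 for PIF3 in C30, to 0.56 for PIF1, 0.30 for PIF5 and -0.28 for IAA29 in GEN2, to 0.51 for PIF1 in GEN3 and to -0.017 for PIF5 in sgs3-12. Without library 1 of GEN2 and GEN3 together it turned to 0.24 for PIF5, 0.083 for PIF7 and -5.14 for IAA29 in GEN2, and to 0.15 for PIF1, -0.28 for IAA19 and -0.28 for ATHB2 in GEN3. PIF1 in GEN3 was at 0.0113 with DESeq2, 0.0115 with its size factors in edgeR, 0.00913 in the 2-group fit and 0.0117 with the replicate block. IAA29 in GEN2 was at -1.25 with limma, which gives YUC8 no value. Where leaving out 1 library turned the sign, the ranges were, in C30, -0.22 to 0.059 for PIF1, -0.24 to 0.18 for PIF3, -0.21 to 0.35 for PIF5, -1.37 to 1.23 for YUC8 and -1.29 to 0.19 for IAA29. In GEN2 they were -0.63 to 0.21 for PIF5, -1.90 to 0.24 for PIF7, -4.84 to 0.34 for YUC8 and -5.17 to 1.07 for IAA29. In GEN3 they were -0.12 to 0.11 for PIF1, -0.041 to 0.55 for PIF5, -1.18 to 0.18 for PIF7, -1.53 to 0.52 for YUC8, -0.32 to 1.42 for IAA19, -1.89 to 0.54 for IAA29 and -0.31 to 1.06 for ATHB2. In sgs3-12 they were -0.38 to 0.085 for PIF1, -0.35 to 0.04 for PIF3, -0.22 to 0.36 for PIF5, -0.47 to 0.90 for PIF7 and -0.53 to 0.81 for IAA19. The cause was not tested.

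Counts of genes called were 0 with edgeR in every comparison. DESeq2 called 278 in C30, 625 in GEN2, 184 in GEN3 and 572 in sgs3-12 over wild type, 319 in GEN2 and 214 in GEN3 over C30, 2 between GEN3 and GEN2, and 1233 over all 5 groups. Limma called 1 in C30 and 4 in sgs3-12 over wild type, 1 each in GEN2 and GEN3 over C30, and 3 over all groups. Without a filter edgeR called 1 in sgs3-12 and 4 over all groups, and with the length offset 2 over all groups. Without library 1 of GEN2 and GEN3 together it called 50, 1222 and 801 in C30, GEN2 and sgs3-12 over wild type, 788 in GEN2 over C30 and 1235 over all groups. With 1 library left out the counts ran from 0 to 34 in C30, 0 to 1637 in GEN2, 0 to 1 in GEN3, 0 to 5 in sgs3-12, 0 to 487 for GEN2 over C30, 0 to 252 for GEN3 over GEN2 and 0 to 643 over all groups. A lone library of a group is assumed to vary like the others. Deviations of same-numbered libraries correlated at -0.27 to 0.45 (highest for GEN2 with GEN3), not above 0.1 in every pair, so the number was not taken as a pairing; with the replicate block edgeR called 1 gene in GEN2 and 1 in sgs3-12, and the estimates were -0.58 for YUC8 in C30 and -1.37 for IAA29 in GEN2. Of 20 genes named as nearest in pattern, 13 were kept with a pseudocount of 0.1. YUC8 rests on 1 to 74 counts per library.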
